A study of Astyanax mexicanus with 26 samples.

Results

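H3K4me3 of Tinaja cave fish livers was compared with H3K4me3 of surface fish livers in the Mexican tetra, *Astyanax mexicanus*, using every peak that the authors listed for this mark in both morphs. The Tinaja list held 136219 peaks and the surface list 56323, together 192542 of the 833231 peaks in the 9 lists of the series. Peaks of the 2 lists that overlapped or touched were merged into 143083 regions, and each region was classed as Tinaja only, surface only or both. The Tinaja list rested on 3 immunoprecipitates and the surface list on 2, all from adult livers of fish without any stated treatment. Tinaja is a cave-dwelling morph and surface fish are the river-dwelling form of the same species. Each immunoprecipitation used 200000 cells, fixed in 1% formaldehyde for 15 min, and 1 µg of antibody. Whether the libraries came from separate fish, and the sex of the fish, is not stated in the labels. The peaks of Pachón, another cave morph, and of H3K27ac and H3K27me3 served only to describe the classes.

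H3K4me3, trimethylation of lysine 4 on histone H3, marks the start sites of transcribed genes, where it is laid down by the SET1 and MLL enzyme complexes. H3K27ac, laid down by the acetyltransferases p300 and CBP, marks active promoters and enhancers. H3K27me3 is laid down by Polycomb repressive complex PRC2 and marks silenced genes. Wide H3K4me3 together with H3K27me3, called bivalent when both sit on the same chromatin, is known from promoters of developmental regulators that a tissue keeps silent. Whole liver mixes hepatocytes with bile duct, vessel and immune cells. Marks at 1 place in these lists can therefore come from different cells, and fewer cells with a mark cannot be told apart from less of the mark per cell.

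Each morph and mark had 1 list for all its libraries, so the spread between replicates cannot be seen and no test was made. How the libraries were combined is not stated, and the lists were treated as pooled. Intervals are exact binomial 95% intervals (Clopper-Pearson) and cover counting error only. Neighbouring regions are not independent, so the intervals are narrower than any interval over fish would be. The lists give positions without heights, and the depth behind them is unknown. The H3K4me3 and H3K27ac libraries carried the numbers 1934 and 2005 in Tinaja and 1930 in surface. Morph and library number therefore cannot be told apart for H3K4me3 or for H3K27ac. Pachón libraries of these marks carried 1889 and 1934, so Pachón shared the number 1934 with Tinaja and no number with surface. The H3K27me3 libraries of Tinaja, surface and Pachón carried 1 number, 2399. Positions are counted from 1 and follow the deposited lists, whose genome build the labels do not name. The gene table at hand belongs to another assembly, so regions were named by position and not by gene, and no liver marker gene could be looked up.

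With the full lists, most regions had H3K4me3 in Tinaja alone, and very few had it in surface alone. Tinaja only held 89489 regions, or 62.5% of all. Surface only held 7839 regions, or 5.48%, and 45755 regions, or 32%, had the mark in both morphs. The Tinaja list was 2.42 times as long as the surface list and covered 75.96 Mb against 33.98 Mb, a factor of 2.24. Of the Tinaja peaks, 34.3% met a surface peak (34.05 to 34.56), whereas 86.08% of the surface peaks met a Tinaja peak (85.79 to 86.37). These were 46729 Tinaja and 48483 surface peaks, so the shares differ chiefly by the length of the lists.

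Regions of 1 morph were narrow in both morphs. Median widths were 368 bp for Tinaja only, 356 bp for surface only and 716 bp for regions of both. The quartiles of Tinaja only were 301 and 475 bp and those of surface only 294 and 456 bp. Regions of 1000 bp and more numbered 1785 in Tinaja only (1.995% of the class), 114 in surface only (1.454%) and 12027 in both (26.29%). Tinaja only outnumbered surface only at all widths, with 21718 against 2146 regions from 200 to 300 bp and 1316 against 86 from 1000 to 1500 bp. In the widest 10% of the Tinaja list, 85.3% of peaks met a surface peak, and in the narrowest 10% the share was 6.512%. For surface peaks the same shares were 98.12% and 65.73%. At like widths, a surface peak thus met a Tinaja peak more often than the reverse, among the narrowest peaks too. The Tinaja list was 2.42 times as long, so a surface peak had more peaks to meet. This order therefore cannot be read as a trait of the morphs.

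**Figure D1:**
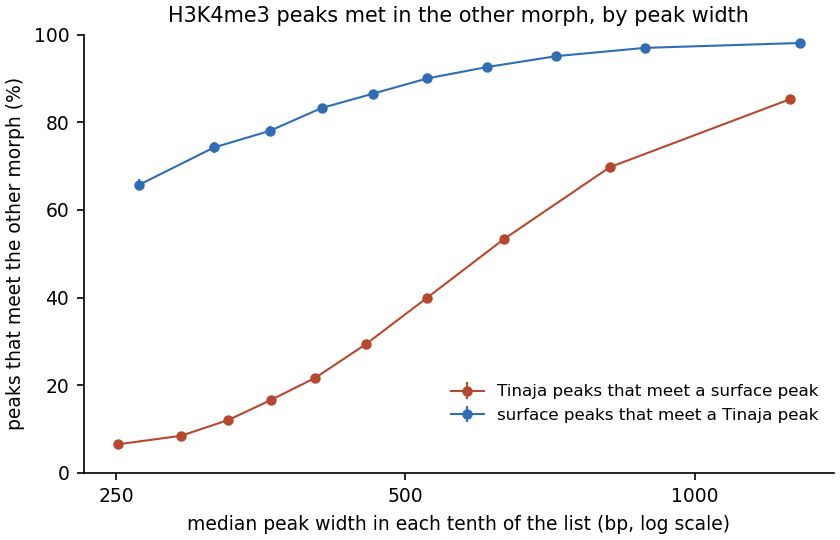
Percentage of H3K4me3 peaks that met a peak of the other morph (y axis), for each 10% of a list ordered by width and plotted at its median width in bp (x axis, log scale), with exact binomial 95% intervals. Tinaja peaks ran between 6.512% and 85.3% and surface peaks between 65.73% and 98.12%, with a Tinaja list 2.42 times as long as the surface list.

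Cutting the Tinaja list to the 56323 widest peaks brought both classes of 1 morph to nearly the same size. Lists of equal length whose peaks pair mostly 1 to 1 leave nearly equal numbers unmet, so this near equality follows from the cut. The cut dropped 79896 Tinaja peaks, kept none narrower than 478 bp and left the surface list whole. Among 75513 regions, 21903 were then Tinaja only (29% of all), 19578 surface only (25.9%) and 34032 of both (45.1%). Of the Tinaja peaks kept, 61.11% met a surface peak, and 65.24% of surface peaks met a kept Tinaja peak. The surface only class of this cut is largely made by the cut itself. In it, 11739 regions, or 59.96%, met a dropped narrow Tinaja peak, and the remaining 7839 had no Tinaja peak of any width. When the Tinaja list was cut further, to the covered length of the surface list, the order turned round, with 7511 regions of Tinaja only and 30761 of surface only. That cut kept 30590 Tinaja peaks of at least 671 bp. Which morph had more regions of its own therefore followed the rule for list length, and the descriptions below rest on width, place and the other marks.

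**Figure D2:**
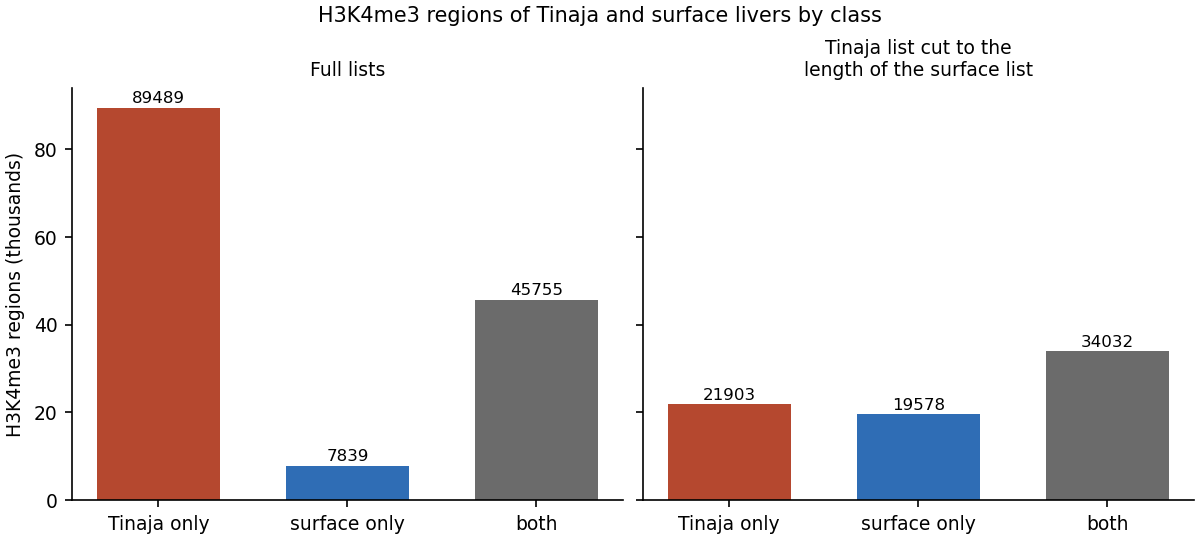
Number of H3K4me3 regions (y axis, in units of 1000) by class (x axis), with the full lists on the left and with the Tinaja list cut to the length of the surface list on the right. Tinaja only held 89489 regions with the full lists and 21903 after the cut, and surface only held 7839 and 19578.

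Where both morphs had H3K4me3, the listed peaks usually reached further in Tinaja. The Tinaja list rested on 3 libraries and the surface list on 2, and the depth is unknown. Wider peaks in Tinaja therefore cannot be told apart from a difference in depth or in peak calling. The median length covered in regions of both was 678 bp in Tinaja and 539 bp in surface. The ratio of Tinaja to surface had a median of 1.18 and quartiles of 1.03 and 1.42, and 79.8% of the regions had more covered base pairs in Tinaja (79.43 to 80.16). Nearly all were simple pairs, since 42715 of 45755 joined 1 Tinaja peak with 1 surface peak. In 58.86% of these pairs the surface peak lay wholly inside the Tinaja peak, and in 8.477% the Tinaja peak lay inside the surface peak. The other pairs were staggered, apart from 3 with identical borders. Tinaja peaks went beyond surface peaks by a median of 46 bp at either end, and the centres of the peaks lay a median of 37.5 bp apart. The quartiles of the extension were 0 and 102 bp at the lower coordinate and 0 and 101 bp at the higher one, over all pairs.

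The ratio differed more with H3K27ac in 1 morph than with H3K27me3 in 1 morph. Where H3K27me3 was in Tinaja alone, in 1415 shared regions, the median ratio was 1.19 and Tinaja was the wider in 76.96%. Where H3K27me3 was in surface alone, in 2466 regions, these values were 1.14 and 69.14%. The median ratio was 1.15 in the 19596 shared regions with H3K27ac in both morphs and H3K27me3 in neither, the usual picture of an active promoter. It was 1.2 in the 5780 regions with H3K27me3 in both morphs and H3K27ac in neither, where the ratios spread more widely, with 5% below 0.624 and 5% above 2.95. In the 8855 shared regions with H3K27ac in Tinaja alone, Tinaja H3K4me3 was the wider in 87.49% and the median ratio was 1.32. In the 654 regions with H3K27ac in surface alone, Tinaja was the wider in 45.87% (42 to 49.78) and the ratio was 0.977. Tinaja H3K4me3 was thus the wider more often where H3K27ac was in Tinaja alone than where it was in surface alone. A wider region meets H3K27ac of either morph more easily, and the Tinaja H3K27ac list was 1.67 times as long as that of surface. Shared regions with at least 2 times as much H3K4me3 in Tinaja met H3K27ac at 66.05% in Tinaja and 26.01% in surface. Those with a smaller difference met it at 72.36% and 56.1%. Those with at least 2 times as much in surface met it at 31.31% in Tinaja and 33.78% in surface. H3K27ac was thus less frequent in each morph at large differences. Its shares in the 2 morphs lay furthest apart where Tinaja H3K4me3 was far wider.

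Regions with large differences in extent met H3K27me3 more often than the other shared regions. In 3564 regions of both, Tinaja H3K4me3 covered at least 2 times as much as surface H3K4me3, and in 444 regions the reverse held. Of the 1911 such regions with more in Tinaja and at least 1000 bp wide, 77.5% had H3K27me3 in Tinaja and 77.6% had it in surface. Of the 172 regions of that width with at least 2 times as much in surface, 50% had H3K27me3 in Tinaja (42.29 to 57.71) and 65.12% had it in surface (57.49 to 72.21). In the 9944 shared regions of that width with a smaller difference, the shares were 37.89% in Tinaja and 40.38% in surface. H3K27ac was present at 64.78% in Tinaja and 18.58% in surface in the 1911 regions with far more H3K4me3 in Tinaja. In the 9944 with a smaller difference it was present at 79.06% in Tinaja and 62.52% in surface, so it was less frequent in both morphs where Tinaja H3K4me3 was far wider. The Tinaja H3K27ac list was 1.67 times as long as the surface list.

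**Figure D3:**
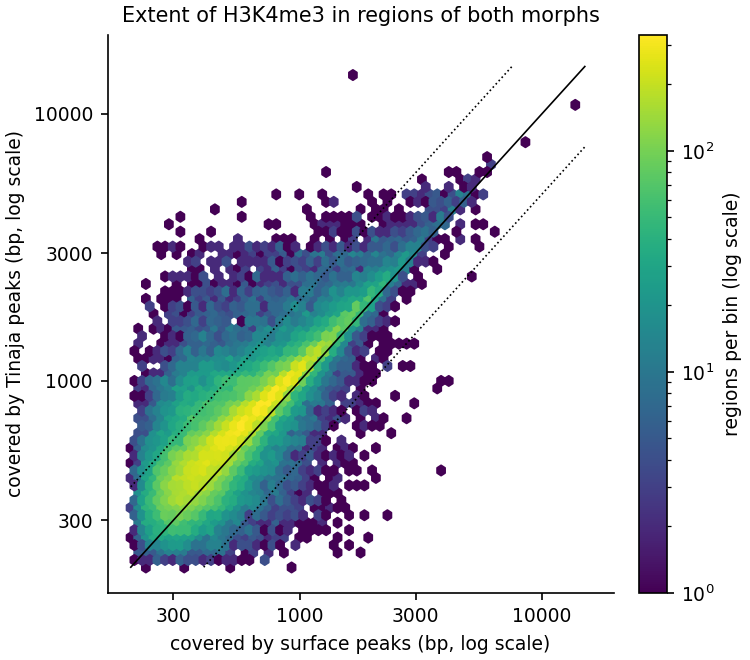
Base pairs covered by Tinaja peaks (y axis) and by surface peaks (x axis) in the 45755 H3K4me3 regions of both morphs, both on log scales, with colour giving the number of regions per bin. The solid line marks equal extent and the dotted lines a factor of 2, and 79.8% of the regions lie above the solid line.

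In the 5 placed stretches where Tinaja H3K4me3 exceeded surface H3K4me3 by the most base pairs, Tinaja H3K27me3 covered 93% to 100%. On chromosome 3, from 53716508 to 53721467, a single Tinaja H3K4me3 peak of 4960 bp stood over 3 surface peaks that covered 965 bp. H3K27me3 covered 93.5% of it in Tinaja, 91% in Pachón and 38.6% in surface. On chromosome 24, from 42329113 to 42333650, Tinaja H3K4me3 covered 4538 bp and surface 567 bp, with H3K27me3 over 93% in Tinaja and 24.2% in surface. Both stretches carried no H3K27ac in surface, and the first had 1334 bp of it in Tinaja. On chromosome 3, from 70661447 to 70665797, Tinaja H3K4me3 covered 4351 bp and surface 456 bp, and H3K27me3 covered 98.2% in Tinaja and 58.2% in surface. A stretch on chromosome 9, from 13422817 to 13427743, differed in that H3K27me3 was alike, at 96.9% in Tinaja and 92.9% in surface, while H3K4me3 covered 4927 bp in Tinaja and 1224 bp in surface. The fifth stretch, on chromosome 25 from 30542527 to 30547251, had 4725 bp of H3K4me3 in Tinaja and 1397 bp in surface, with H3K27me3 over 100% in Tinaja and 22.7% in surface. In all 5, Pachón H3K4me3 covered at least 94.9% of the stretch, so in extent the other cave morph stood with Tinaja there. Pachón also shared library number 1934 with Tinaja and no number with surface, so cave origin and library number cannot be told apart.

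In 4 of the 5 stretches where surface H3K4me3 exceeded Tinaja H3K4me3 by the most base pairs, H3K27me3 also covered more in surface. On chromosome 11, from 1743805 to 1747998, H3K4me3 covered 1013 bp in Tinaja and 4194 bp in surface, and H3K27me3 covered 26.9% in Tinaja and 100% in surface. On chromosome 2, from 5992583 to 5997691, 3 Tinaja peaks covered 2529 bp of a single surface peak of 5109 bp, and H3K27me3 covered 9.02% in Tinaja and 100% in surface. On chromosome 16, from 40363299 to 40368810, 7 Tinaja peaks covered 3081 bp of a single surface peak of 5512 bp, with H3K27me3 over 23.5% in Tinaja and 93.5% in surface. On chromosome 14, from 2011329 to 2017680, 2 Tinaja peaks covered 3756 bp of a surface peak of 6352 bp, with H3K27me3 over 17.2% in Tinaja and 97.9% in surface. An exception was chromosome 17, from 23151153 to 23154760, where H3K4me3 covered 914 bp in Tinaja and 3608 bp in surface. There H3K27me3 covered only 14% in Tinaja and 6.18% in surface, but 88.2% in Pachón. None of these 5 carried H3K27ac in Tinaja or surface. Pachón H3K4me3 covered 82%, 76.7% and 78.2% of the stretches on chromosomes 14, 2 and 16, against 59.1%, 49.5% and 55.9% in Tinaja and 100% of each in surface. On chromosome 11 H3K4me3 covered 24.2% in Tinaja and 28.1% in Pachón, and on chromosome 17 it covered 25.3% in Tinaja and 18.5% in Pachón.

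The 5 widest placed regions of both had H3K4me3 over most of their width in each morph. The lowest cover was 59.1%, in Tinaja, at the stretch on chromosome 14 described above. On chromosome 20, from 13679276 to 13685641, H3K4me3 covered 100% in Tinaja and 97.3% in surface, and H3K27me3 covered 99.1% and 99.4%. Tinaja H3K27ac covered 41.7% of that region and surface H3K27ac 0%. The widest placed region of both, on chromosome 22 from 9950037 to 9957186, measured 7150 bp, with H3K4me3 over 96.1% in Tinaja and 85.3% in surface. H3K27me3 covered 100% of it in Tinaja and 92.6% in surface, and H3K27ac covered 21.2% in Tinaja and 0% in surface. On chromosome 9, from 29935787 to 29942021, H3K4me3 covered 99.9% in Tinaja and 86.9% in surface, H3K27me3 covered 98.6% and 99.6%, and H3K27ac covered 64.5% in Tinaja and 0% in surface. On chromosome 23, from 2516095 to 2522490, H3K4me3 covered 100% in Tinaja and 93.4% in surface, and H3K27me3 covered 62.2% in Tinaja and 90.7% in surface, without H3K27ac in either. Tinaja H3K27ac was thus found on 3 of the 5 and surface H3K27ac on 0.

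At regions of 1 morph, H3K27me3 was more frequent in the morph that had H3K4me3. Over all H3K4me3 regions, 36.5% met H3K27me3 of Tinaja, 36.4% that of Pachón and 36.2% that of surface. Tinaja only regions met it at 40.94% in Tinaja (40.62 to 41.27) and 37.74% in surface (37.42 to 38.06). Surface only regions met it at 13.71% in Tinaja (12.96 to 14.49) and 30.02% in surface (29 to 31.04). The H3K27me3 lists of the 2 morphs were almost equally long, with 99370 peaks in Tinaja and 97948 in surface, so list length touches this comparison far less than that of H3K4me3. In both classes the morph with H3K4me3 was thus the one that met H3K27me3 more often, by a little in Tinaja only and by a factor of over 2 in surface only. With the Tinaja H3K4me3 list cut to the length of surface, the shares were 56.85% in Tinaja and 53.86% in surface for Tinaja only, and 19.72% and 28.27% for surface only.

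Among regions where just 1 of the morphs had H3K27me3, the direction followed H3K4me3. In surface only, 232 regions had H3K27me3 in Tinaja alone and 1510 had it in surface alone. In Tinaja only, 9334 had it in Tinaja alone and 6463 in surface alone. Regions of both morphs leaned the other way from Tinaja only, with 1415 in Tinaja alone and 2466 in surface alone. H3K27me3 in both morphs was found at 30.51% of Tinaja only, 10.75% of surface only and 28.74% of regions of both. Over all regions the share was 28.87%, so Tinaja only lay near it and surface only below it.

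The share with H3K27me3 mostly climbed with the width of the region. Tinaja H3K27me3 at surface only rose to 25.67% from 700 to 1000 bp and was lower in the wider bins, which held at most 86 regions each. In Tinaja only regions from 200 to 300 bp, 28.3% met Tinaja H3K27me3, and of the 82 regions of 2500 bp and more, 98.78% did (93.39 to 99.97). The same 82 met surface H3K27me3 at 80.49% (70.26 to 88.42), no higher than the 84.24% from 1500 to 2500 bp (80.22 to 87.72). Surface only regions from 200 to 300 bp met H3K27me3 at 11.32% in Tinaja and 24.09% in surface. In the 25 surface only regions from 1500 to 2500 bp, 12% met Tinaja H3K27me3 (2.547 to 31.22) and 80% met surface H3K27me3 (59.3 to 93.17). Regions of both also rose, to 78.93% in Tinaja and 79.98% in surface at 2500 bp and more, without a gap between the morphs. A wider region has more room to meet a peak, and the part of this in the slope was not tested, whereas the values of the 2 morphs within a bin are of the same regions.

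**Figure D4:**
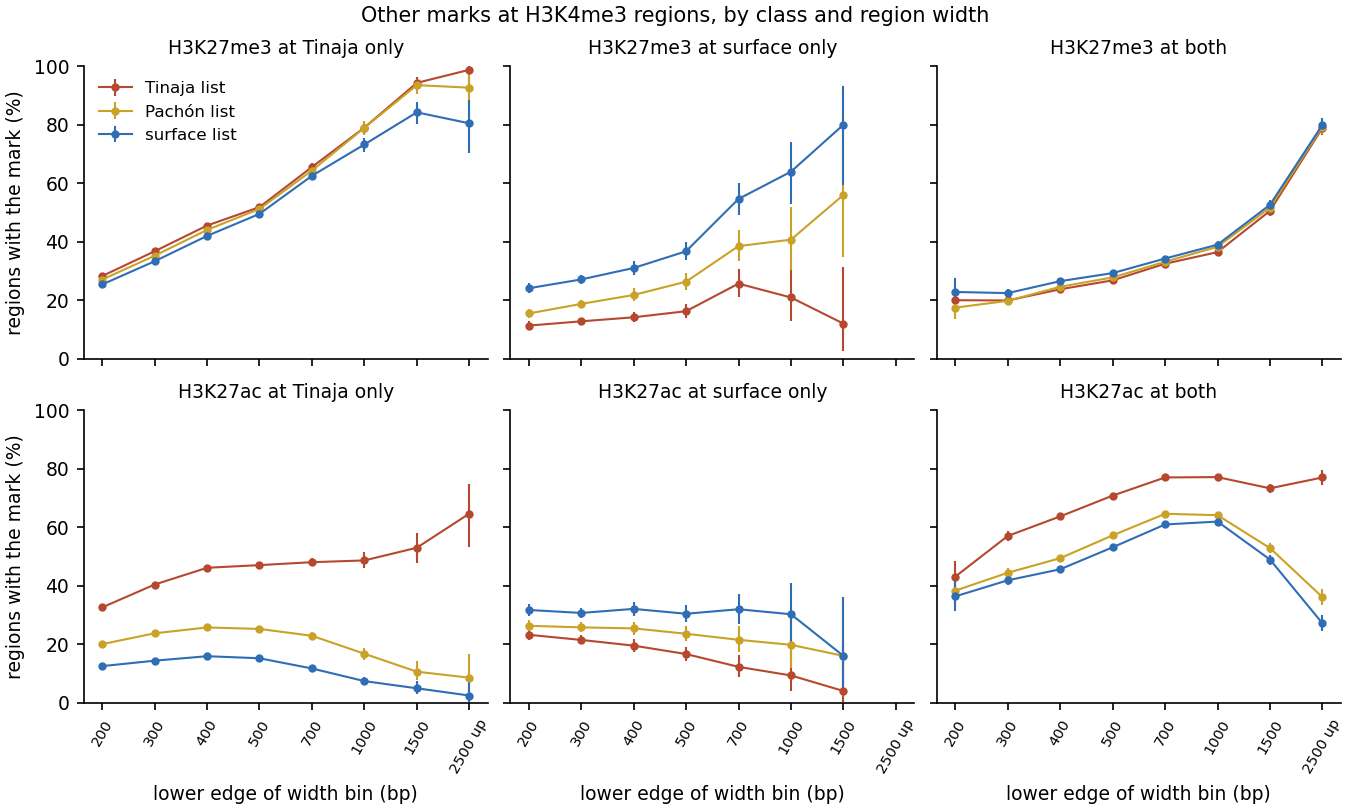
Percentage of H3K4me3 regions that met H3K27me3 (top) or H3K27ac (bottom) of Tinaja, Pachón or surface (y axis), by class and by bin of region width (x axis, lower edge in bp), with exact binomial 95% intervals. Bins with fewer than 20 regions are not drawn, and at Tinaja only regions of 2500 bp and more H3K27me3 stood at 98.78% in Tinaja and 80.49% in surface.

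The wide regions of Tinaja only and of surface only differed in what the other morph had at the same place. Of the 1785 Tinaja only regions of at least 1000 bp, 73.67% had H3K27me3 in both morphs (71.56 to 75.7), 9.58% in Tinaja alone and 2.297% in surface alone. Tinaja H3K27me3 covered a median of 93.8% of their width and surface H3K27me3 a median of 83.1%. Of the 114 surface only regions of that width, 17.54% had H3K27me3 in both morphs (11.06 to 25.79), 0.8772% in Tinaja alone and 50.88% in surface alone (41.35 to 60.36). Median coverage by H3K27me3 there was 0% in Tinaja and 84.5% in surface. Wide H3K4me3 found only in Tinaja thus mostly lay on H3K27me3 that surface fish also had, while wide H3K4me3 found only in surface lay more often on H3K27me3 listed in surface alone than on H3K27me3 of both. The contrast depended in part on narrow Tinaja peaks. With the cut Tinaja list, surface only held 233 such regions, with H3K27me3 in both morphs at 34.33% and in surface alone at 33.91%. Tinaja only regions of this width could not change under the cut, which removes only Tinaja peaks under 478 bp.

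With the full lists, wide regions without any peak of the other morph were the smaller part of Tinaja only and the larger part of surface only. At all widths such regions were the larger part of both classes, at 50.83% of Tinaja only and 67.25% of surface only. Regions without such a peak within 5 kb either were then 16.93% of Tinaja only and 11.63% of surface only, the reverse order. Of the 1785 wide Tinaja only regions, 364 had no surface peak of any of the 3 marks (20.39%, 18.54 to 22.34), and 123 had none within 5 kb either (6.891%, 5.759 to 8.166). Of the 114 wide surface only regions, 85 had no Tinaja peak of any mark (74.56%, 65.55 to 82.25), and 24 had none within 5 kb either (21.05%, 13.98 to 29.69). With the cut Tinaja list the same 85 were 36.48% of 233 wide surface only regions (30.29 to 43.02), and the 24 were 10.3%. Every region that the cut added to this class held a dropped Tinaja H3K4me3 peak, which still counted as a Tinaja peak. These lower shares were therefore fixed by the cut and cannot bear on the contrast with Tinaja only.

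The 5 widest placed Tinaja only regions all carried H3K27me3 in Tinaja and all met Pachón H3K4me3. The widest, on chromosome 7 from 20745690 to 20750004, was 1 Tinaja peak of 4315 bp. H3K27me3 covered 83.8% of it in Tinaja, 96.1% in Pachón and 68.2% in surface, and Pachón H3K4me3 covered 98.1%. The next, on chromosome 8 from 17570884 to 17575113, measured 4230 bp, with H3K27me3 over 59.1% in Tinaja and 0% in surface. On chromosome 5, from 30667455 to 30671419, a region of 3965 bp had H3K27me3 over 66.9% in Tinaja and 0% in surface, and Pachón H3K4me3 over 44.5%. On chromosome 2, from 3753539 to 3757030, 3492 bp of Tinaja H3K4me3 had H3K27me3 over 83.4% in Tinaja and 28.2% in surface. The fifth, on chromosome 8 from 12381798 to 12385091, lay in H3K27me3 of both morphs, at 97.4% in Tinaja and 100% in surface. Tinaja H3K27ac covered between 0% and 26.6% of these regions, and surface H3K27ac was absent from all 5.

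The 5 widest placed surface only regions had H3K27me3 over 95.4% to 100% of their width in surface. On chromosome 6, from 22868509 to 22871116, Tinaja had no peak of any mark, Pachón had H3K4me3 and H3K27me3 over 100%, and surface had 2608 bp of H3K4me3 with H3K27me3 over 95.4%. On chromosome 5, from 29930112 to 29932365, neither Tinaja nor Pachón had any peak, and surface had 2254 bp of H3K4me3 with H3K27me3 over 99.3%. On chromosome 16, from 39321925 to 39323882, H3K27me3 covered 17.7% in Tinaja and 100% in surface of 1958 bp. The remaining 2 lay on chromosome 24, from 30487014 to 30488945, and on chromosome 17, from 6228077 to 6229935, and had no Tinaja peak of any mark. Pachón H3K4me3 was present at 4 of the 5, over 53.6% to 100% of the width. The exception was the region on chromosome 5.

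**Figure D5:**
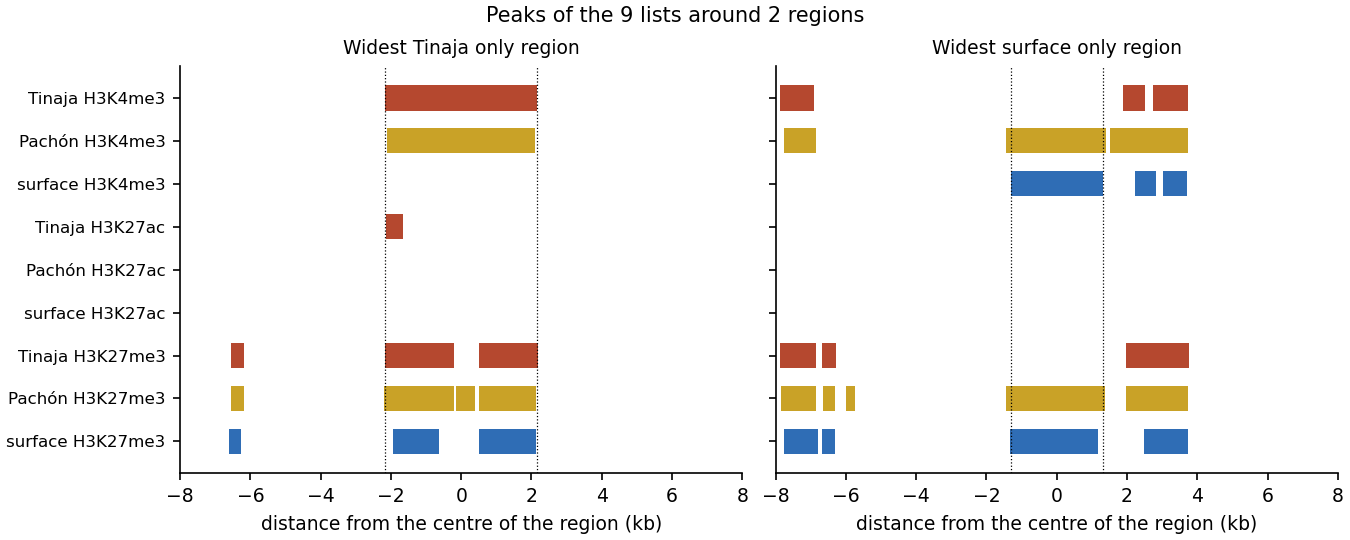
Peaks of all 9 lists (rows, named at the left) around the widest placed Tinaja only region and the widest placed surface only region, against the distance from the centre of the region in kb (x axis). Dotted lines mark the region, and H3K27me3 covered 83.8% of the first in Tinaja and 68.2% in surface, and 0% of the second in Tinaja and 95.4% in surface.

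H3K27ac, the mark of activity, was found at a smaller share of regions of 1 morph than of shared regions. Over all H3K4me3 regions, 49.7% met Tinaja H3K27ac, 34.2% met Pachón H3K27ac and 27.6% met surface H3K27ac. Regions of both met it at 71.47% in Tinaja and 53.54% in surface. Tinaja only regions met it at 41.12% in Tinaja (40.8 to 41.45) and 14.02% in surface (13.79 to 14.24). Surface only regions met it at 20.36% in Tinaja (19.47 to 21.27) and 31.16% in surface (30.14 to 32.2). Regions of both were also wider, and a wider region meets a peak more easily. From 200 to 300 bp, Tinaja H3K27ac met 32.57% of Tinaja only and 43.1% of both. Surface H3K27ac met 31.69% of surface only and 36.34% of both. From 500 to 700 bp these shares were 47.03%, 70.8%, 30.4% and 53.12%. The order held in these bins, with a smaller gap in the narrow one. With the Tinaja H3K27ac list cut to its 70089 widest peaks, the length of the surface list, Tinaja only met Tinaja H3K27ac at 23.91%, still above the 14.02% of surface, and surface only met it at 13.27%, below the 31.16% of surface. With the full H3K4me3 lists, H3K27ac was thus more frequent in each class as a whole in the morph that had H3K4me3, under both lengths of the H3K27ac list. With the Tinaja H3K4me3 list cut to the length of surface, and the H3K27ac lists whole, Tinaja only met H3K27ac at 47.4% in Tinaja and 13.95% in surface. The direction in surface only turned under that cut, at 42.17% in Tinaja (41.48 to 42.87) and 38% in surface (37.32 to 38.68). Of that cut class, however, 59.96% met a dropped Tinaja H3K4me3 peak and were regions of both under the full lists. The turn therefore cannot be read as a trait of regions without Tinaja H3K4me3, which stood at 20.36% and 31.16%. The narrowest Tinaja only regions, from 200 to 300 bp, were an exception with H3K27ac lists of equal length, at 12.12% in Tinaja (11.69 to 12.57) and 12.49% in surface. Regions of both of that width stood at 15.77% in Tinaja and 36.34% in surface. The cut kept no Tinaja H3K27ac peak under 407 bp and left narrow surface peaks in place. Narrow regions therefore cannot show which morph met H3K27ac more often under it.

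H3K27ac in both morphs was less frequent at regions of 1 morph than over all regions. It was found at 13.49% of Tinaja only, 16.93% of surface only, 52.11% of regions of both and 26.03% of all. The shares below are of regions that already had a given state in the morph with H3K4me3. Over all Tinaja only regions, surface had H3K27ac without H3K27me3 at 11.43%, H3K27me3 without H3K27ac at 35.15% and neither at 50.83%. Over all surface only regions, Tinaja had these states at 19.03%, 12.39% and 67.25%. Of the 24292 Tinaja only regions with H3K27ac and without H3K27me3 in Tinaja, 38.7% had H3K27ac without H3K27me3 in surface as well, and 51.2% had neither mark in surface. Of the 2130 surface only regions with H3K27ac and without H3K27me3 in surface, 57.75% had the same state in Tinaja and 40.38% had neither mark. Among regions with just 1 of these marks in the morph with H3K4me3, the opposite mark alone in the other morph was uncommon. Tinaja only regions with H3K27ac alone in Tinaja had H3K27me3 alone in surface at 7.34%, and those with H3K27me3 alone in Tinaja had H3K27ac alone in surface at 0.1409%. Surface only regions with H3K27ac alone in surface had H3K27me3 alone in Tinaja at 1.033%. Those with H3K27me3 alone in surface had H3K27ac alone in Tinaja at 0.4412%. Regions with both marks lay above the share of their class in Tinaja only and near it in surface only. Of the 12510 Tinaja only regions with both marks in Tinaja, 66.1% had H3K27me3 without H3K27ac in surface, against 35.15% of the class. Of the 313 surface only regions with both marks in surface, 14.7% had H3K27me3 without H3K27ac in Tinaja (10.96 to 19.11). The share of that class was 12.39%.

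Tinaja H3K27ac was also found on wide H3K4me3 where surface H3K27ac was scarce. In Tinaja only regions of 2500 bp and more, 64.63% met H3K27ac of Tinaja (53.3 to 74.88), 8.537% that of Pachón (3.501 to 16.8) and 2.439% that of surface (0.2968 to 8.534). In the 1139 regions of both of that width, the shares were 77% in Tinaja (74.44 to 79.41), 36.08% in Pachón and 27.13% in surface (24.56 to 29.81). With H3K27ac lists of equal length, Tinaja H3K27ac met 54.88% of the 82 Tinaja only regions and 69.18% of the 1139 regions of both. Regions of both from 1000 to 1500 bp showed a smaller gap, with 77.12% in Tinaja and 61.92% in surface. H3K27ac covered little of the wide Tinaja only regions, a median of 15.8% in Tinaja and 0% in surface for the 469 regions of 1500 bp and more. At Tinaja only regions, 13.98% had H3K27ac together with H3K27me3 in Tinaja, against 2.586% in surface. At surface only regions these shares were 1.327% in Tinaja and 3.993% in surface. Over all regions they were 14.38% in Tinaja and 4.656% in surface, so the Tinaja share at Tinaja only regions was close to that of all.

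The third morph listed the wide regions of 1 morph more often than the narrow ones. Over all H3K4me3 regions 39.6% met Pachón H3K4me3. Regions of both did so at 78.78%, Tinaja only at 20.73% and surface only at 26.62%. In Tinaja only, the share was 69.98% from 1000 to 1500 bp, 92.76% from 1500 to 2500 bp and 97.56% in the widest bin. In surface only, it was 55.81% from 1000 to 1500 bp (44.7 to 66.52) and 80% from 1500 to 2500 bp (59.3 to 93.17). Regions of both rose as well, from 35.21% at 200 to 300 bp to 99.65% at 2500 bp and more. The rise is thus not particular to regions of 1 morph. A wider region has more room to meet a peak, and the part of this in the rise was not tested. Regions that met none of the other 7 lists, whether of Pachón H3K4me3 or of the other marks in any morph, made up 21.34% of Tinaja only, 27.57% of surface only and 4.974% of both. They were narrow. In Tinaja only regions under 300 bp they made up 33.7%, and from 1000 to 1500 bp 2.66%, while 0 of the 82 widest was of this kind, with an upper limit of 4.399%. Surface only ran in the same way, with 32.48% under 300 bp and 5.814% from 1000 to 1500 bp.

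Surface only regions lay closer to shared H3K4me3 than Tinaja only regions did. A region of both lay within 1 kb of 9.074% of Tinaja only regions (8.886 to 9.264) and of 20.16% of surface only regions (19.27 to 21.06). On chromosomes and scaffolds that held a region of both, the median distance to the nearest one was 9336 bp for Tinaja only and 4889 bp for surface only. With the cut Tinaja list the shares within 1 kb were 8.341% and 14.81%, so the order stayed. With the full lists, Tinaja only regions outnumbered surface only regions on each of the 25 placed chromosomes. Their share ran from 60% on chromosome 3 to 67.8% on chromosome 21, and that of surface only from 3.827% on chromosome 11 to 6.413% on chromosome 17.

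Regions were also counted in 9017 windows of 100 kb that held any. The median window held 6 Tinaja only, 0 surface only and 3 shared regions. In 95% of windows there were at most 15 Tinaja only, 2 surface only and 10 shared regions, and the highest counts were 35, 8 and 20. The fullest window, on chromosome 5 from 36000001 to 36100000, held 35 Tinaja only, 0 surface only and 9 shared regions, of which the 35 included 21 with Tinaja H3K27ac, 7 with surface H3K27ac and 1 with Tinaja H3K27me3. A window on chromosome 9, from 27500001 to 27600000, held 34 Tinaja only regions, 1 surface only region and none of both. There 28 of the 34 met Tinaja H3K27ac and 12 met surface H3K27ac, while 22 met Tinaja H3K27me3 and 24 met surface H3K27me3. H3K27ac and H3K27me3 of surface were thus present in a window with a single surface H3K4me3 peak. The third, on chromosome 18 from 16000001 to 16100000, held 34 Tinaja only regions, 19 with Tinaja H3K27ac and 2 with surface H3K27ac. The window with the most surface only regions, on chromosome 6 from 10300001 to 10400000, held 5 Tinaja only, 8 surface only and 8 shared regions. Of its 8 surface only regions, 5 met Tinaja H3K27ac and 7 met surface H3K27ac, and none met H3K27me3 of either morph. Windows on chromosome 2 from 14000001 to 14100000 and on chromosome 3 from 13300001 to 13400000 each held 7 surface only regions.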

How the data were processed

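Chromatin immunoprecipitation from adult liver was sequenced as 50-bp single reads, per the labels. Tools listed in the submitters' processing notes are MACS2, SAMtools, Bowtie2 and bcl2fastq 2.20. The labels do not state their settings, the genome build or how replicates were combined. The authors deposited 1 list of peak positions per morph and mark, in base pairs, with a score of 0 in every row, so peaks could be ranked by width only. The score was not used, and the 6 total chromatin samples were not analysed here. Overlap meant 1 bp or more. Regions were named by rule: the 5 widest placed regions of each class, the 5 of both with the largest difference in covered base pairs in each direction, and the 3 windows of 100 kb with most regions of a class. The members, lists and classes were chosen with earlier results of these data known. The gene table is of AstMex3_surface, whose last gene on chromosome 1 ends at 134 Mb, whereas the last peak ends at 27 Mb, so no gene was assigned and no sequence is shown. Interval arithmetic was tested on 200 simulated sets against base by base counting, with 0 mismatches. Alternatives were cuts by width, overlap of 50%, merging within 1 kb and placed chromosomes. Figures used Matplotlib 3.10.9, intervals SciPy 1.17.1, and all steps NumPy 2.4.6 under Python 3.11.15.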

Additional observations from a re-analysis of the deposited data

How the results depend on the processing

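No paired analysis was possible because each morph and mark has 1 list for all its libraries, and leaving out a replicate was not run for the same reason. Overlap of 50% of the shorter peak split 194 regions and changed no count or share beyond its limit. Counts below are of Tinaja only, surface only and both, and shares are H3K27ac at Tinaja only and at surface only, then H3K27me3 at Tinaja only and at surface only, each with the list of the morph that had H3K4me3.

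With the Tinaja list cut to the length of the surface list, counts were 21903, 19578 and 34032, and shares 47.4%, 38%, 56.85% and 28.27%. With lists of equal covered length, counts were 7511, 30761 and 22886, and shares 48.74%, 43.1%, 68.05% and 29.07%. With the wider 50% of each list, counts were 43193, 2593 and 24463, and shares 53.87%, 33.17%, 48.39% and 41.96%. With peaks up to 1 kb apart merged, surface only held 4927, and shares were 42.5%, 29.65%, 43.02% and 31.95%. On placed chromosomes, shares were 42.37%, 33.55%, 39.73% and 28%. With peaks of at least 500 bp in both lists, a setting chosen after seeing the data, counts were 28633, 3310 and 23233, and shares 55.05%, 37.31%, 52% and 40.3%. With H3K27ac lists of equal length, also chosen after seeing the data, the H3K27ac share of Tinaja only was 23.91%, below the 31.16% of surface only. With the first of these cuts, surface only also met Tinaja H3K27ac more often (42.17%) than surface H3K27ac. In that cut class, 59.96% of regions met a dropped Tinaja H3K4me3 peak. The order of the H3K27ac shares of Tinaja only and surface only depended on the length of the H3K27ac lists. At equal length it also depended on region width. From 200 to 300 bp the shares were 12.12% and 31.69%, and from 500 to 700 bp 38.38% and 30.4%. From 1000 to 1500 bp they were 39.89% and 30.23%. The cut to equal length kept no Tinaja H3K27ac peak under 407 bp. H3K27me3 was more frequent at Tinaja only than at surface only under each setting listed. The cause of the moves was not tested. Depth is unknown, so absence from a list is not absence of the mark.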
